A study of Mus musculus with 12 samples.

Results

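Embryos carrying 1 whirligig copy of Chd7 were compared with wild-type embryos of the same line across all genes measured. The comparison used 8 of the series' 12 arrays: 4 of genotype Chd7Whi/+ and 4 of genotype Chd7+/+, chosen by the genotype in the labels. Each array held total RNA of embryonic day 9.5 (E9.5) female embryo tissue on a mixed C3HeB/FeJ background, and the samples of a genotype are described as biological replicates. The study asked which genes depend on functional Chd7 at the stage when neural crest cells migrate. All embryos came from matings of Chd7Whi/+ males with Chd7Whi/+ females, so the wild-type embryos also developed in heterozygous mothers. They had been freed of the yolk sac, and the RNA had been extracted with Trizol and treated with DNase. The other 4 arrays, of genotype Chd7Whi/Whi (homozygous), entered the fit only to share the estimate of the spread, and their values are given where they stand beside a heterozygous one. Whether a sample was 1 embryo or a pool is not given in the sources used here. The number in the sample titles was 39, 50, 50 and 53 for wild-type replicates 1 to 4. It was 39, 50, 53 and 53 for heterozygous replicates 1 to 4, and what it marks is not given there either.

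Chd7 is an ATP-dependent chromatin remodelling enzyme that binds enhancers and moves nucleosomes. Loss of 1 copy of the human gene causes CHARGE syndrome, which affects the eye, heart, choanae, growth, genitals and ear, and many of the affected tissues receive neural crest cells. Whirligig is a mouse line with a mutated Chd7 allele, in which heterozygotes survive and homozygotes die before birth.

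Values are log2 signal relative to the 75th percentile of the same array, called the level below, so that -1 is a signal of 1 log2 unit less than that percentile. Of the 22563 genes or transcript identifiers tested, 15270 had a symbol. The share of probes well above background ran from 69.1% to 75.7% over these arrays. Because the gene table links no probe to Chd7, its RNA could not serve as a check of the genotypes. The RNA that coats the inactive X chromosome, Xist, was detected in every array. The 8 arrays lay on 3 slides that were scanned one slide at a time, and each slide held both genotypes. No position on a slide held both genotypes: the wild-type arrays lay at positions 1, 1, 3 and 1 and the heterozygous arrays at 2, 4, 4 and 2, so position and genotype cannot be told apart within these 8 arrays. The 75th percentile of the signal was 1368 to 1626 in the wild-type and 1095 to 1342 in the heterozygous arrays and did not overlap. The part of position and of this signal in the results was tested only through the alternatives named beside them.

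Among the heterozygous arrays, replicates 1 and 4 stood apart. In heterozygous replicate 1, 138 genes lay at least 1 log2 unit below the lowest of the other 7 arrays and 51 lay as far above the highest. In heterozygous replicate 4 the counts were 32 below and 116 above. For the other 6 arrays they were 8 to 37 below and 18 to 43 above. The genes behind these counts are described below, and medians of gene lists that 1 of these arrays turned or moved most are given with and without it. The median over genes of the SD between arrays was 0.195 in wild type and 0.219 in heterozygotes.

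Only transcripts with a lower level in heterozygotes passed the test, ENSMUST00000001667 and Myot. The count is 2 of 22563, or 0.00886%, at an adjusted p under 0.05 by limma with Benjamini-Hochberg adjustment. An unadjusted p under 0.05 was reached by 3481 genes, 2389 of them higher and 1092 lower in heterozygotes. The smallest adjusted p of a gene that was not called was 0.124.

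The first is the transcript listed as ENSMUST00000001667, for which the gene table gives no symbol. Its level was -1.30, -1.11, -1.24 and -0.94 in wild-type replicates 1 to 4 and -2.25, -2.22, -2.44 and -2.62 in heterozygous replicates 1 to 4. All heterozygous arrays lay below all wild-type arrays by more than the spread of either group. It fell by 1.24 ± 0.13 (SE) on the log2 scale, a signal 2.36-fold lower, with a limma adjusted p of 0.0151. The homozygous arrays, set against the same wild-type arrays, lay at -3.53, -3.86, -3.97 and -3.85, below every heterozygous array. Within slides 1, 2 and 3, heterozygous minus wild type was -0.94, -1.26 and -1.68. Within title numbers 39, 50 and 53 it was -0.95, -1.05 and -1.59.

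The second is Myot, which encodes myotilin, a protein of the Z disc of striated muscle. Its level was -5.59, -5.77, -5.66 and -5.30 in the wild-type arrays and -7.53, -6.90, -7.75 and -8.29 in the heterozygous arrays. The signal was well above background on all wild-type arrays and on none of the heterozygous ones. Myot was therefore at least 2.03-fold lower, a bound that takes the lowest signal counted as well above background for the heterozygous arrays. Like Sln, Cdh7, Myog, Klhl41 and Tshr below, Myot met the filter on dim probes only through the wild-type arrays, where it was high. The fitted fall was 2.04 ± 0.24 on the log2 scale, with a limma adjusted p of 0.032. Within slides the difference was -1.62, -2.03 and -2.99, and within title numbers 39, 50 and 53 it was -1.94, -1.19 and -2.72. In the homozygous arrays Myot lay at -9.31 to -8.76. These are whole embryos, so fewer cells of a type and less RNA per cell cannot be told apart, here or for any gene below.

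Both calls depended on single arrays and on the arrays that shared the fit. In a fit of only the 8 arrays compared neither was called, at the same differences of -1.24 for ENSMUST00000001667 (limma adjusted p = 0.0631) and -2.04 for Myot (0.158). With title number as a block in those 8 arrays neither was called, at -1.22 and -1.95 (limma adjusted p = 0.423 for each). ENSMUST00000001667 was no longer called without wild-type replicate 2, 3 or 4 or heterozygous replicate 3, at differences of -1.22, -1.27, -1.17 and -1.22. Myot was no longer called without any 1 of the wild-type arrays (-2.04, -2.10, -2.06 and -1.94) or without heterozygous replicate 1 or 3 (-2.06 and -1.99), nor with slide in the fit (-2.09). The differences themselves kept their size in these fits. With position on the slide in the fit, which compares the genotypes only through the homozygous arrays, the differences were -1.04 and -2.16 and neither gene was called. With normexp background correction, which adds an offset before the log, Myot lay 0.58 lower and was not called.

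**Figure D1:**
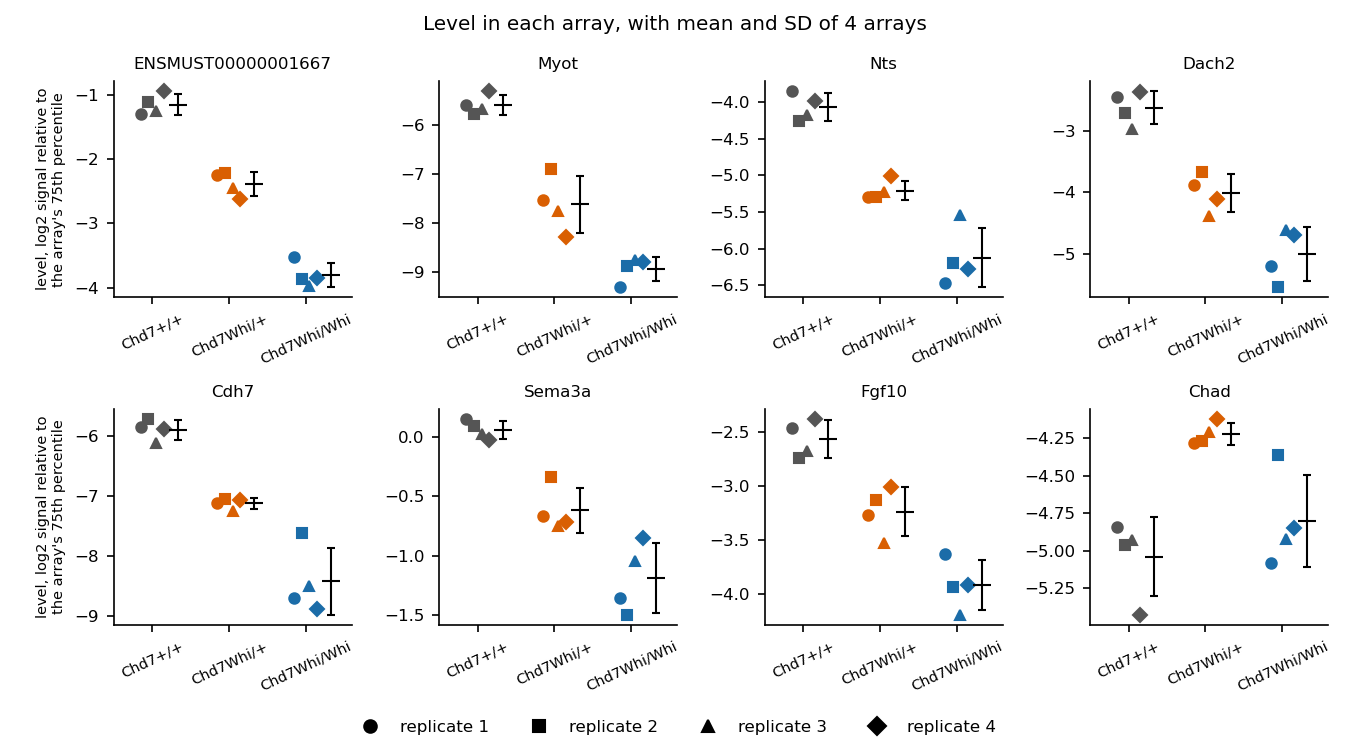
Level of 8 genes in each array (log2 signal relative to the array's 75th percentile, y axis) by genotype (x axis), with symbols for replicates 1 to 4 and a horizontal bar with whiskers for the mean and SD of 4 arrays. ENSMUST00000001667 and Myot passed the test in heterozygous embryos, the other 6 did not; Chad is the gene shown whose heterozygous arrays all lay above the wild-type arrays.

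Besides the calls, genes were counted whose 4 heterozygous arrays all lay on the same side of all 4 wild-type arrays. In 1012 genes (4.49%) the heterozygous arrays lay above and in 492 (2.18%) below. These shares are the ones to set beside the separated members of every list below. The higher genes were mostly dim, with a median wild-type level of -3.41 and a median difference of 0.50. The lower genes were brighter, with a median wild-type level of -0.56 and a median difference of -0.35. When genes were split by signal into 4 equal bins, 429 lay above and 102 below in the dimmest bin, whereas 103 lay above and 154 below in the brightest. The excess of higher genes depended on how the signal was treated. It was 67.3% of such genes as processed here, 58.6% (845 above, 597 below) when arrays were scaled to the median, 48.7% (684 and 721) after quantile normalization and 47.6% (352 and 387) after normexp background correction. With only probes above background on all 12 arrays it was 67.8% (892 and 424). Without heterozygous replicate 1, 6.23% of genes lay above and 3.04% below.

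**Figure D2:**
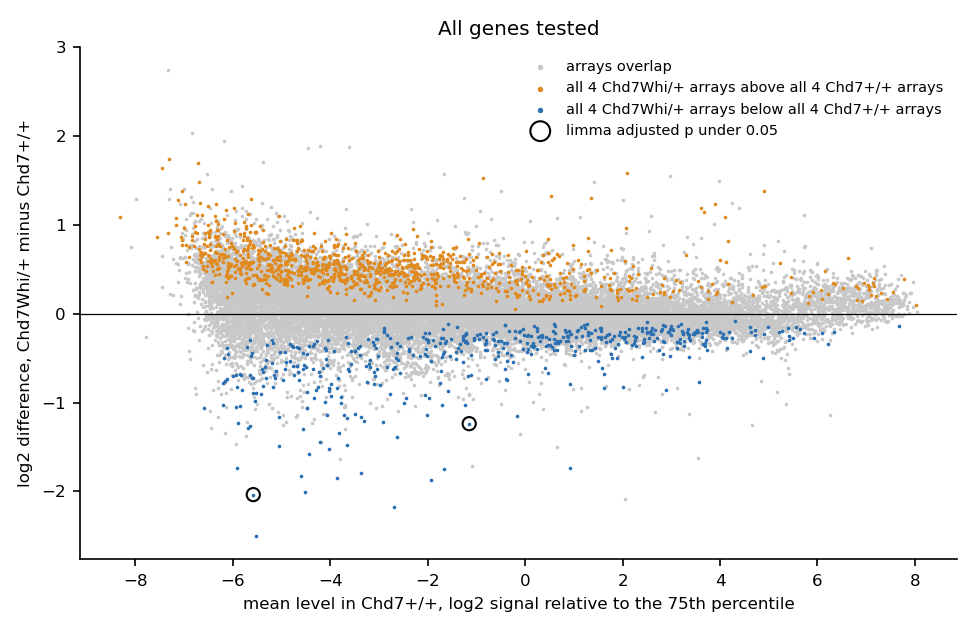
Difference between heterozygous and wild-type means (log2, y axis) against the mean level in wild type (log2 signal relative to the 75th percentile, x axis) for the 22563 genes tested. Orange points are the 1012 genes whose heterozygous arrays all lay above the wild-type arrays, blue points the 492 that lay below, grey points the rest, and the 2 circled genes passed the test.

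A difference of at least 1 log2 unit was measured for 200 genes, 109 higher and 91 lower. Arrays did not overlap for 34 of the higher and 43 of the lower ones. Besides Myot, these 43 held the muscle genes Sln, Myh3, Cav3, Myog, Myl1, Tnnc2, Klhl41, Pln, Tecrl, Hspb3, Cox8b, Trdn, Mybphl and Txlnb, which were picked out after their values were seen and carry no count against other genes. Hspb3, Trdn and Mybphl were far lowest in heterozygous replicate 1, where they lay at -7.14, -8.27 and -8.53 against -3.25 to -2.26, -4.94 to -4.49 and -4.14 to -3.90 in the other 3 heterozygous arrays. In that array these probes were below the lowest signal counted as well above background (-6.69), so the size of their differences is not exact. Cox8b, a muscle form of a cytochrome c oxidase subunit, was well above background on no heterozygous array and at least 1.61-fold lower. Txlnb, which encodes the muscle protein beta-taxilin, lay at -2.55, -2.58, -2.45 and -2.34 in wild type and at -4.20, -3.02, -3.37 and -3.33 in heterozygotes. None of these genes but Myot passed the test.

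The list of skeletal muscle and myogenesis genes, like the other lists, was chosen with earlier results of these data known. In it, 29 of 34 genes were measured. Of these 1 was called, Myot, and 9 lay below in all heterozygous arrays, against 1 that lay above. Of all genes 2.18% lay below and 4.49% above. Among the 9, Myot, Sln and Myog met the filter on dim probes only through wild type. Myf6, Myh3 and Cav3 were not well above background on all heterozygous arrays, so they did not meet it through heterozygotes. A filter met in this way favours lower heterozygous values, so the count of 9 carries no support of its own. Values were lower in 23 of 29 members (79.3%, against 43.1% of all genes tested), with a median difference of -0.25 against 0.04 for all genes. Skeletal muscle of the trunk forms from the myotome of the somite, where the factors Myf5, Myod1, Myog and Myf6 switch on contractile proteins, and at this stage the first fibres are differentiating.

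Myog, the basic helix-loop-helix factor required for differentiation of myoblasts, lay at -3.22, -3.64, -3.80 and -2.82 in the wild-type arrays and at -4.48, -4.37, -5.53 and -6.31 in the heterozygous arrays. No heterozygous array reached the lowest wild-type array. The difference was -1.80 ± 0.41 (limma adjusted p = 0.237), and the homozygous arrays lay at -7.38 to -6.23. Myf6, a later factor of the same family, lay at -5.02, -5.65, -5.75 and -5.12 against -6.20, -5.97, -6.15 and -6.46, a difference of -0.81 ± 0.21. In contrast, Myod1 lay 0.38 higher in value, and Pax3 and Pax7, which mark muscle progenitors and also neural crest and neural tube, differed by -0.03 and -0.04 with overlapping arrays. Lbx1, a factor of migrating limb muscle precursors and of the neural tube, was the member whose arrays all lay above, at 0.49 ± 0.21.

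Among the contractile and calcium-handling genes, Sln, which encodes sarcolipin, an inhibitor of the sarcoplasmic calcium pump, lay at -4.66, -6.81, -6.15 and -4.51 in wild type and at -8.24, -7.43, -8.53 and -7.93 in heterozygotes. It was well above background on all wild-type arrays and no heterozygous one, and was at least 2.10-fold lower (fitted difference -2.50 ± 0.47, limma adjusted p = 0.223). The wild-type arrays themselves spread widely, with replicates 2 and 3 low. Both carry title number 50, as does heterozygous replicate 2. Within title numbers 39, 50 and 53 the difference of Sln was -3.58, -0.95 and -3.72. Tnnc2, the fast-muscle troponin C, lay at -1.56, -2.52, -2.35 and -1.64 against -3.41, -2.87, -3.39 and -2.96 (-1.14 ± 0.24), and was well above background on all arrays. Myh3, the embryonic myosin heavy chain, lay at -3.33, -5.86, -5.38 and -3.53 against -6.07, -5.93, -7.18 and -6.93, so that heterozygous replicate 2 lay just below wild-type replicate 2. Klhl41, a sarcomere-associated protein outside the list, lay at -5.81, -6.17, -5.67 and -5.07 against -6.83, -6.61, -7.39 and -7.02 (-1.28 ± 0.24, limma adjusted p = 0.223). Myog, Myf6 and Myh3 were well above background on 2 of 4 heterozygous arrays and Klhl41 on 1. With slide in the fit Sln passed the test, at -2.80.

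The members that heart muscle also uses behaved differently between the heterozygous arrays. Myl4, an atrial myosin light chain, lay at 1.45 in heterozygous replicate 1 and at 5.07 to 5.40 in the other heterozygous arrays, against 5.08 to 5.55 in wild type. Myl1 lay at -3.70 in that array and at -0.10 to 0.30 in the other 3, which were still below the wild-type range of 0.80 to 1.09. Cav3, the muscle caveolin, lay at -8.42 there and at -5.73 to -4.26 in the others, against -4.06 to -3.63. Without heterozygous replicate 1, the list had 14 of 29 members lower in value and a median of 0.02, while 9 members still lay below in all remaining arrays, 31.0% against 3.04% of all genes. Thus the median of the list rested on that array. Leaving out an array cannot lower the count of separated members, so that count does not show whether they depended on it.

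Promoters of 3 of the separated members are shown so that their motifs can be read beside these values. Of the 9 members that lay below, 5 had a promoter window used here, from the RefSeq table of build GRCm38.p6. Each is the 150 bases directly before the annotated start, 5′ to 3′ on the strand of the gene. Capitals mark matches on either strand to the E-box CANNTG, the letters read by Myog, Myod1 and related factors, or to CTANNNNTA, the core of sites read by Mef2 factors.
Myog, chr1:134289854-134290003, + strand: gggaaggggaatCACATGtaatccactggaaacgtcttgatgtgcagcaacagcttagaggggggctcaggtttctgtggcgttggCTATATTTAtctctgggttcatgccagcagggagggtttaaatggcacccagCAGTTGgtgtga
Tnnc2, chr2:164779735-164779884, - strand: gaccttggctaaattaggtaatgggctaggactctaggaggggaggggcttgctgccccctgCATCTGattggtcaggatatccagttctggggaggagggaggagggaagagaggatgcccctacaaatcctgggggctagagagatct
Myh3, chr11:67078150-67078299, + strand: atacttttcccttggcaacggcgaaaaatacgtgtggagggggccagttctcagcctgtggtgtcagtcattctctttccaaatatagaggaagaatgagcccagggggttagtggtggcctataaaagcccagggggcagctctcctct
The window of Myog holds 2 E-boxes and 1 CTANNNNTA, that of Tnnc2 1 E-box, and that of Myh3 neither set of letters. Among all 32851 windows of this length in the table, leaving out 1 chromosome, 47.7% hold an E-box and 10.8% a CTANNNNTA. Of the 5 matched members' windows 3 hold an E-box and 1 a CTANNNNTA. A match describes the letters and is not evidence of a bound site.

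**Figure D3:**
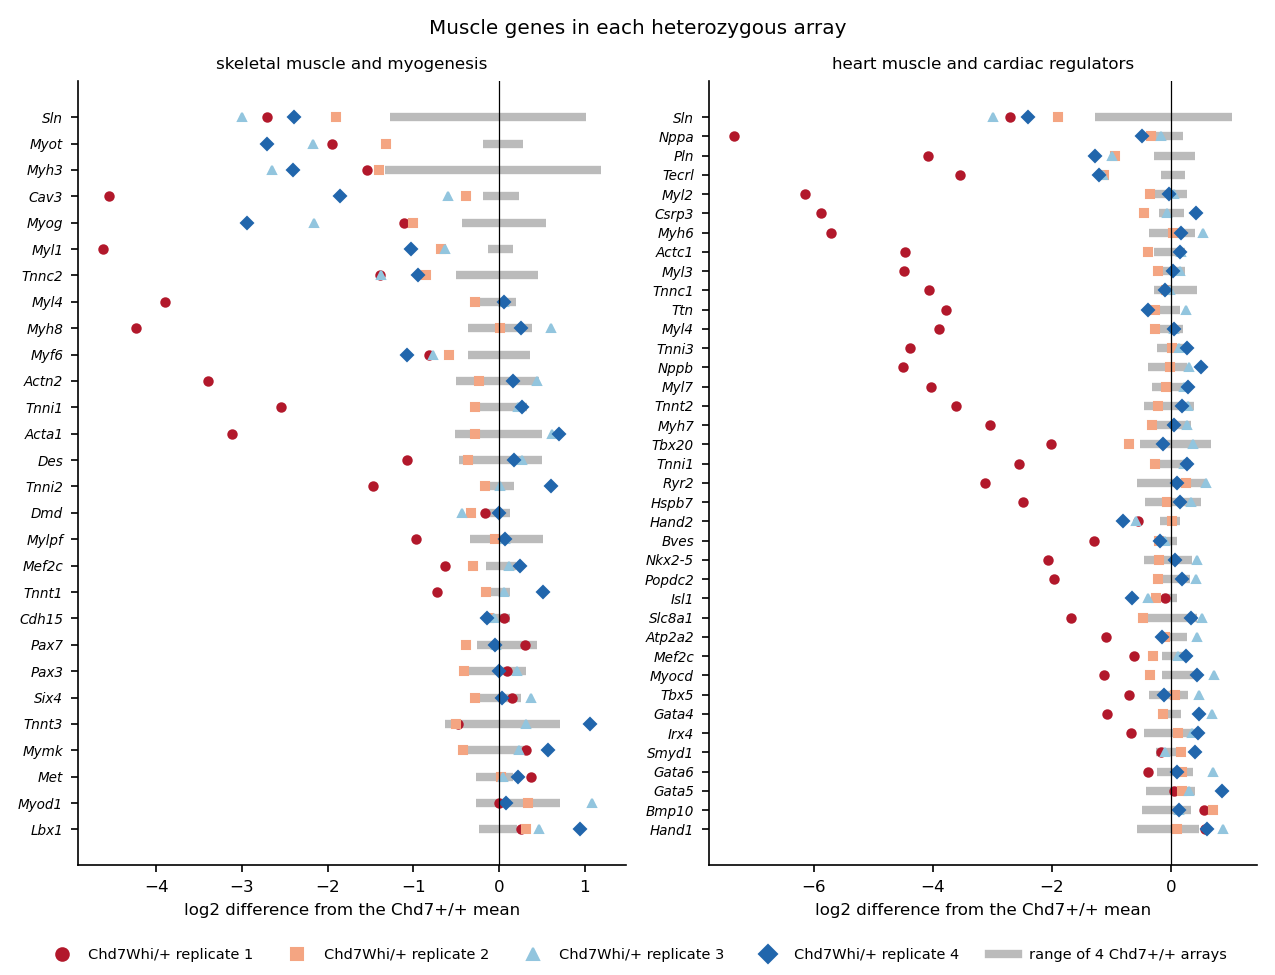
Difference of each heterozygous array from the wild-type mean (log2, x axis) for skeletal muscle genes (left) and the 38 measured heart genes (right); symbols are heterozygous replicates 1 to 4 and grey bars the range of the 4 wild-type arrays. Heterozygous replicate 1 (red circles) lies far to the left for heart genes such as Nppa and Myl2, while Sln, Myot, Myog and Tnnc2 lie left of the wild-type range in all 4 arrays.

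Heart muscle genes were lower in value in 32 of 38 measured members, with a median difference of -0.56, but this rested on 1 array. In heterozygous replicate 1 the median member lay 2.52 below the wild-type mean, against -0.21, 0.24 and 0.11 in heterozygous replicates 2, 3 and 4. Nppa, the atrial natriuretic peptide, lay at -5.29 in that array and at 1.57 to 2.26 in the other 7. Myl2, the ventricular myosin light chain, lay at -2.59 against 3.19 to 3.82. Csrp3, a Z disc protein, lay at -5.22 against 0.21 to 1.07, and Myh6, the alpha myosin heavy chain, at -1.05 against 4.29 to 5.19. The cardiac factors Nkx2-5 and Gata4 lay at -1.50 and -1.89 there, against 0.11 to 1.0 and -1.01 to -0.12 elsewhere. Hand1 and Bmp10, in contrast, lay at -0.83 and -4.42, inside the range of the other arrays. Without this array 15 of 38 members were lower in value and the median was 0.08.

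The heart genes Sln, Pln and Tecrl lay below in all heterozygous arrays, 3 of 38 measured, where 2.18% of all genes did. Tecrl, an endoplasmic reticulum protein linked to heart rhythm, lay at -1.69, -1.71, -1.83 and -1.43 in wild type and at -5.21, -2.79, -2.81 and -2.87 in heterozygotes. It differed by -1.75 ± 0.44 (limma adjusted p = 0.237). Without heterozygous replicate 1 its difference was -1.16 and it passed the test, so the lower level was measured apart from that array. Pln, which encodes phospholamban, the regulator of the cardiac calcium pump, lay at -4.59, -4.88, -4.72 and -4.19 against -8.67, -5.54, -5.58 and -5.88 (-1.83 ± 0.56).

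Genes of the posterior body stood on the other side in the same array. Of the Hox genes of paralogue groups 6 to 13, 14 of 24 were measured and 12 were higher in value. Their median member lay 1.23 above the wild-type mean in heterozygous replicate 1, and 0.13, 0.14 and -0.77 from it in heterozygous replicates 2, 3 and 4. Hoxc10 lay at -0.71 there and at -7.09 to -4.66 in the other 7 arrays. Hoxd11 lay at -2.66 against -6.79 to -5.59, and Hoxa11os, a transcript antisense to Hoxa11, at -0.74 against -5.22 to -4.49. Evx1, which neighbours the HoxA cluster and is expressed in the tail bud, lay at 0.80 against -5.14 to -2.85. The caudal gene Cdx2 lay at 1.21 against -2.07 to -0.80, and T, the brachyury gene of tail bud and notochord, at 1.11 against -1.97 to -1.29. The median over the Hox list was 0.14, with 4 of 14 members higher in value and a median of -0.12 without that array, and a median of 0.46 without heterozygous replicate 4. Snx29, a sorting nexin and not a Hox gene, was among the 4 genes farthest above, at -2.05 against -6.03 to -5.33. The part of dissection or of developmental stage in this array was not tested.

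Of the presomitic mesoderm and somite genes, 26 of 28 were measured, and none had separated arrays. The median was 0.09, and it was -0.07 without heterozygous replicate 1 and 0.19 without heterozygous replicate 4. Meox2, a homeobox gene of somites and limb muscle precursors, lay at 0.58, -0.04, 0.31 and 0.55 against -0.38, -0.05, 0.08 and -0.89 (-0.66 ± 0.22, limma adjusted p = 0.252). Tbx6, a factor of presomitic mesoderm, lay 0.76 ± 0.28 higher in value, with -1.59 in heterozygous replicate 1 and -3.29 to -2.36 in the other heterozygous arrays. Hox genes of paralogue groups 1 to 5 had a median of -0.03 over 15 members. Their median member lay at 0.30, -0.06, 0.09 and -0.53 in heterozygous replicates 1 to 4, and the median was -0.17 without replicate 1 and 0.14 without replicate 4, so the value near 0 balanced those arrays. In this list were Hoxb1 at 0.50 ± 0.21 and Hoxd3 at 0.21 ± 0.14.

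**Figure D4:**
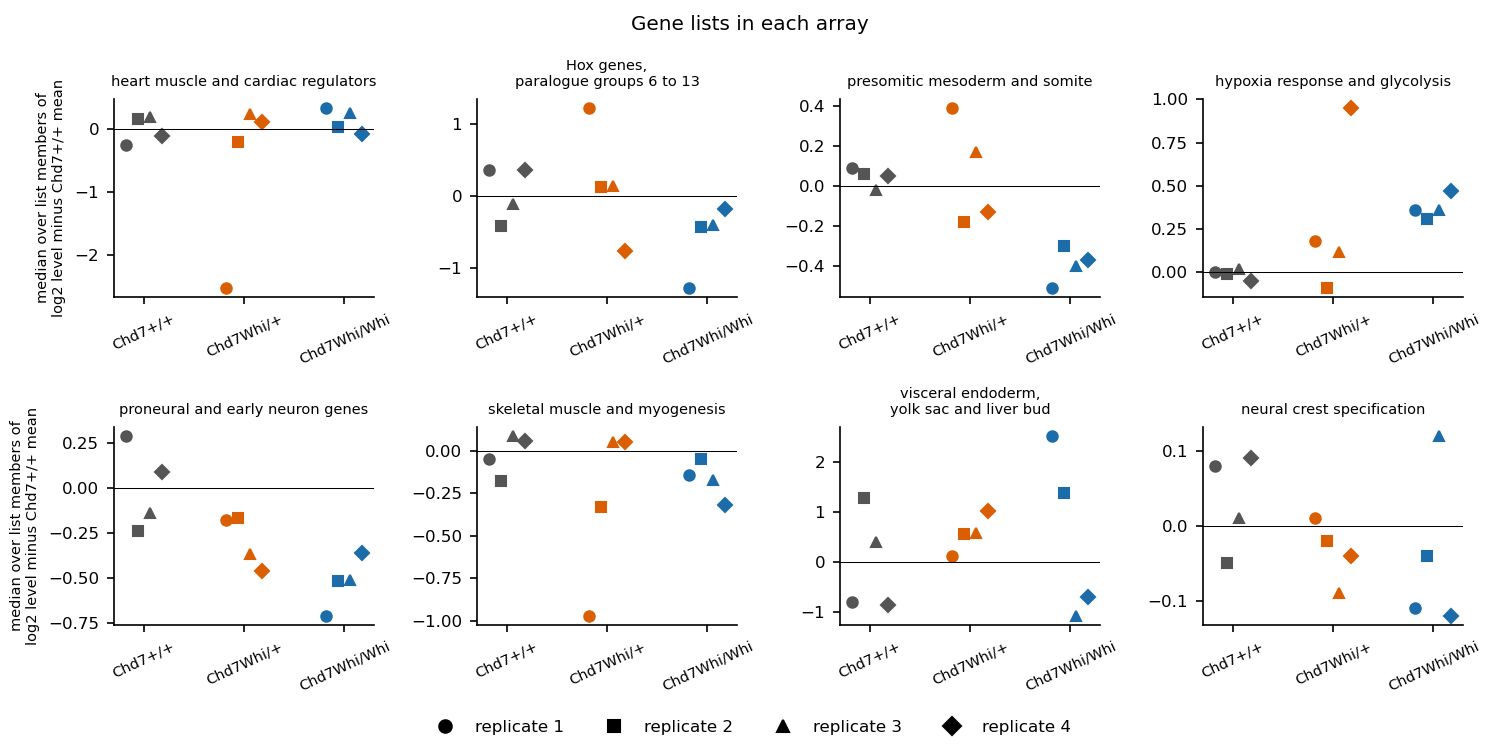
Median over the members of 8 gene lists of the level minus the wild-type mean (log2, y axis, a separate scale in each panel) in each of 12 arrays, by genotype (x axis). Heterozygous replicate 1 lies at -2.52 for heart genes and 1.23 for posterior Hox genes, and heterozygous replicate 4 at 0.95 for hypoxia and glycolysis genes.

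Among genes with a symbol and separated arrays, Nts and Dach2 had the smallest p of those not called. Nts, the precursor of neurotensin, a neuropeptide, lay at -3.85, -4.26, -4.17 and -3.98 in wild type and at -5.30, -5.29, -5.23 and -5.01 in heterozygotes. The heterozygous arrays lay close together and all below the lowest wild-type array. The difference was -1.14 ± 0.18 (limma adjusted p = 0.177), and after quantile normalization it was -1.29 and passed the test. Dach2, a transcriptional cofactor of the Pax-Six-Eya-Dach network, lay at -2.45, -2.70, -2.96 and -2.37 against -3.88, -3.67, -4.38 and -4.10 (-1.39 ± 0.22, limma adjusted p = 0.18). With slide in the fit its difference was -1.51 and it passed the test, but with slide in a fit of the 8 arrays limma called 0 genes (3543 at an unadjusted p under 0.05). Cdh7, a cadherin of migrating neural crest cells and of the neural tube, was well above background on all wild-type arrays (-5.85, -5.71, -6.11 and -5.87) and on no heterozygous array (-7.11, -7.05, -7.24 and -7.06). It was at least 1.64-fold lower (fitted difference -1.23 ± 0.22), and in a fit of only these 8 arrays it passed the test.

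Vit, the matrix protein vitrin, lay at -3.1, -2.72, -3.19 and -2.94 against -3.95, -3.65, -3.65 and -3.90 (-0.80 ± 0.14). Perp, a desmosome protein and p53 target, lay at 0.19, 0.44, 0.43 and 0.53 against -0.12, -0.07, -0.32 and -0.36 (-0.62 ± 0.11). It was the brightest of the 12 lower genes with the smallest p. Abca9, a lipid transporter of the ABC family, differed by -0.79 ± 0.14 and passed the test with slide in the fit, at -0.81. Zcchc12, a zinc finger coactivator of Bmp signalling, differed by -0.65 ± 0.12. Tshr, the receptor for thyrotropin, and Akap6, an anchoring protein of protein kinase A, differed by -0.76 ± 0.13 and -0.86 ± 0.16, and each was well above background on 1 of 4 heterozygous arrays. The limma adjusted p of Vit, Perp, Abca9, Zcchc12, Tshr and Akap6 was 0.223. In homozygous embryos, where 305 genes (1.35%) passed the test against the same wild-type arrays, the differences of Nts, Dach2 and Vit were -2.06, -2.39 and -2.11, and that of Akap6 was -0.42. Cdh7 was well above background on no homozygous array. The comparisons share the wild-type arrays, so the values stand side by side without a test of likeness.

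On the higher side no gene passed the test. With slide in the fit 1 did, XM_001479617, which has no symbol (1.05, limma adjusted p = 0.0498). The 12 genes with a symbol, separated arrays and the smallest p had limma adjusted p values of 0.223 to 0.232 and were dim, with wild-type means of -2.76 or lower. Chad, the cartilage protein chondroadherin, lay at -4.84, -4.96, -4.93 and -5.43 in wild type and at -4.28, -4.27, -4.21 and -4.12 in heterozygotes (0.82 ± 0.16). Trp73, a p53 family factor of choroid plexus and neurons, lay at -3.40, -3.52, -3.75 and -4.05 against -3.00, -2.96, -2.51 and -2.67 (0.89 ± 0.19). Acan, the cartilage proteoglycan aggrecan, differed by 0.68 ± 0.14, and Lpin1, a phosphatidate phosphatase, by 0.51 ± 0.11. Acot5, a peroxisomal acyl-CoA thioesterase, lay at -3.36, -3.49, -3.30 and -3.74 against -2.70, -2.96, -2.81 and -2.58 (0.71 ± 0.14), and in homozygotes 1.03 above wild type. Over the alternatives in processing and samples, the differences of Chad, Acan and Lpin1 fell as low as 0.09, 0.05 and 0.09. Those of Trp73 and Acot5 fell no lower than 0.42 and 0.31.

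The other higher genes were Tuba3b, a tubulin (0.60 ± 0.12), Pheta2 (0.45 ± 0.09), Csprs (0.71 ± 0.14), Klk10, a kallikrein-related peptidase (0.51 ± 0.11), and Zfp335, a zinc finger protein (0.49 ± 0.10, from 3 wild-type arrays because 1 spot was left out). Over the alternatives the lowest differences of Tuba3b, Pheta2, Csprs, Klk10 and Zfp335 were 0.14, 0.28, 0.39, 0.06 and 0.15. Sypl2, a protein of muscle triads, and Fcgr1, a macrophage Fc receptor, differed by 0.99 ± 0.19 and 0.77 ± 0.15. They lay near the background in wild type, with 3 and 2 of 4 arrays well above it, and after normexp background correction their differences were -0.03 and -0.08. Among brighter genes with separated arrays, Tagln, the smooth muscle protein transgelin, lay at 3.40, 3.78, 3.88 and 3.40 against 4.99, 4.10 and 5.31, with heterozygous replicate 4 left out of the fit by a spot flag (1.19 ± 0.31, limma adjusted p = 0.237); it was picked out after its values were seen.

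Neuronal genes were lower in value as a group without separated arrays. Of the proneural and early neuron genes 43 of 49 were measured, 34 were lower in value (79.1%, against 43.1% of all genes), none was called and none had separated arrays. The median difference was -0.35. It was -0.43 without heterozygous replicate 1, -0.27 without heterozygous replicate 4, and between -0.40 and -0.32 under the other scalings and normexp. The median member lay at 0.29, -0.24, -0.14 and 0.09 in the wild-type arrays and at -0.18, -0.17, -0.37 and -0.46 in the heterozygous ones, so that the groups overlapped and heterozygous replicates 3 and 4 lay lowest. Pou4f1, a homeodomain factor of sensory neurons, lay at -1.97, -2.56, -2.14 and -2.25 against -2.52, -2.78, -2.97 and -2.63 (-0.49 ± 0.15, limma adjusted p = 0.237). Lhx9, a LIM homeodomain factor, differed by -0.53 ± 0.19.

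Several neuronal factors were low in heterozygous replicate 4. Of Atoh1, Nhlh2, Prdm12, Neurod1 and Neurod4, only Prdm12 was above the lowest signal counted as well above background on that array (-6.44), so the distances of the other 4 are not exact. Atoh1, the proneural factor of dorsal interneurons and hair cells, lay at -7.92 there against -6.13 to -4.84. Nhlh2 lay at -7.67 against -6.06 to -2.85, and Prdm12, a regulator of pain-sensing neurons, at -3.79 against -2.32 to -1.58. Neurod1 and Neurod4, factors of neuronal differentiation, lay at -6.95 and -8.65 there, against -6.08 to -4.42 and -7.18 to -5.16. Not all members followed: Tubb3, the neuronal tubulin, was low in heterozygous replicates 3 and 4 (-0.27 and -0.43) but not in 1 and 2 (0.87 and 0.75), against 0.49 to 1.06 in wild type, and Lhx1 and Prph differed by 0.36 and 0.61. The neural progenitor and regional patterning genes, by comparison, had 16 of 32 members lower in value and a median of 0.00, with the floor plate factor Nkx2-2 at 0.49 ± 0.25.

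Among the 31 neural crest specification genes, all measured, none was called. In 19 the value was lower, and the median was -0.04. Zic1, a zinc finger factor of the neural plate border, was the member with separated arrays, at 3.1, 2.58 and 2.99 in wild-type replicates 1, 3 and 4 and 2.44, 2.25, 1.88 and 1.55 in heterozygotes. Wild-type replicate 2 was left out of its fit by a spot flag, and the difference was -0.86 ± 0.26 (limma adjusted p = 0.237). Mitf, the regulator of melanocytes and retinal pigment cells, lay at -1.21, -1.33, -1.48 and -1.04 against -2.37, -1.45, -2.02 and -2.10 (-0.72 ± 0.18), with heterozygous replicate 2 inside the wild-type range. Within title numbers 39, 50 and 53 its difference was -1.16, -0.04 and -1.02. Sox10 and Foxd3, which mark migrating crest cells, were higher in value. Sox10 lay at -0.90, -0.41, -0.37 and -0.89 against 0.05, -0.51, 0.06 and 0.27 (0.61 ± 0.20, limma adjusted p = 0.243), and Foxd3 differed by 0.67 ± 0.24. Sox9, Snai2, Tfap2a and Ets1 differed by -0.17, -0.30, -0.08 and 0.00.

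Crest-derived face and arch genes were lower in value in 24 of 35 measured members, with a median of -0.13, and -0.08 without heterozygous replicate 4. Alx1, a homeobox gene of the frontonasal mesenchyme, lay at -0.85, -0.79, -1.60 and -1.02 in wild type and at -2.21, -1.49, -2.24 and -2.14 in heterozygotes. The groups overlapped because heterozygous replicate 2 lay above wild-type replicate 3, and the difference was -0.96 ± 0.21 (limma adjusted p = 0.232). Within title numbers 39, 50 and 53 it was -1.36, -0.30 and -1.17. Prrx1, of craniofacial and limb mesenchyme, lay at 0.18 to 0.57 in wild type and at -0.02, 0.33, -0.91 and -1.19 in heterozygotes (-0.77 ± 0.30). Osr2, a palate factor, differed by 0.88 ± 0.23, and by -0.06 after normexp background correction. Tbx1, the T-box gene of the pharyngeal arches, differed by 0.08.

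The ear and placode list had 25 of 26 members measured, 10 lower in value and a median of 0.04, which was -0.08 without heterozygous replicate 4 and -0.06 after normexp background correction. Fgf10, a ligand for inner ear and limb outgrowth, lay at -2.46, -2.74, -2.68 and -2.38 against -3.27, -3.13, -3.53 and -3.01. The arrays did not overlap, the difference was -0.67 ± 0.15 (limma adjusted p = 0.232), and within slides it was -0.74, -0.82 and -0.63. Fgf3, an ear-inducing ligand of the hindbrain, went the other way in value, at -5.58, -5.16, -4.98 and -5.15 against -3.55, -5.32, -4.18 and -3.03 (1.20 ± 0.38), with heterozygous replicate 2 inside the wild-type range. Six2, a homeobox factor, differed by -0.11, with separated arrays. Foxi3, a placode forkhead factor, lay above by 0.44 ± 0.16. Of 16 genes tied to Chd7 in earlier animal studies 10 were lower in value, with a median of -0.17 (-0.09 without heterozygous replicate 4), and Fgf10 and the retinoic acid receptor gene Rarb (-0.33 ± 0.14) had separated arrays. Twist1, of crest mesenchyme, differed by -0.32 ± 0.12.

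Axon and crest guidance genes went in both directions. Of 30 measured semaphorins, neuropilins and plexins 3 lay below and 2 above, where 2.18% and 4.49% of all genes did, and the median was 0.03. The 3 that lay below are secreted class 3 ligands, which repel growth cones and crest cells through neuropilin and plexin receptors. Sema3a lay at 0.15, 0.09, 0.02 and -0.03 in wild type and at -0.67, -0.34, -0.75 and -0.72 in heterozygotes (-0.68 ± 0.14, limma adjusted p = 0.232). Sema3d lay at -4.55, -4.39, -4.07 and -4.00 against -5.06, -5.15, -5.16 and -4.91 (-0.82 ± 0.17, limma adjusted p = 0.232). Sema3c differed by -0.46 ± 0.14. In each of the 3 slides Sema3a and Sema3d were lower in value in heterozygotes, with differences of -0.65, -0.81 and -0.69 for Sema3a and -0.56, -0.93 and -0.90 for Sema3d. Another class 3 ligand, Sema3g, and the receptor Plxna1 lay above, by 0.39 ± 0.09 and 0.65 ± 0.16, and the receptors Nrp1 and Nrp2 differed by 0.14 and -0.07.

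Among 20 measured ephrins and Eph receptors, Epha7 lay at 0.36, 0.19, 0.02 and 0.08 against -0.28, -0.22, -0.27 and -0.07 (-0.38 ± 0.12). Ephb2 lay at -2.28, -2.25, -2.31 and -2.55 against -1.84, -2.01, -1.69 and -1.58 (0.56 ± 0.13), and Ephb6 lay 0.29 above. Thus 1 of the 20 lay below and 2 above, where 2.18% and 4.49% of all genes did. Epha3 differed most in value, by -0.94 ± 0.36, with overlapping arrays. Slit3, a secreted Robo ligand, lay above by 0.34 ± 0.10. Slit2 differed by -0.42 ± 0.16 with overlapping arrays.

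Of 31 measured matrix genes 4 lay below (2.18% of all genes did), namely Hapln1, Has2, Vcan and Col9a1. Hapln1 links hyaluronan to proteoglycans, Has2 makes hyaluronan and Vcan encodes versican, which binds it. Hapln1 lay at 1.44, 1.72, 1.36 and 1.78 against 0.86, 1.21, 0.97 and 0.81 (-0.61 ± 0.13, limma adjusted p = 0.232). Vcan lay at 2.33, 2.44, 2.14 and 2.21 against 1.70, 2.09, 1.92 and 1.93 (-0.37 ± 0.10), and Has2 at 1.33, 1.57, 1.39 and 1.41 against 0.94, 1.30, 0.86 and 1.06 (-0.38 ± 0.13). These 3 were bright genes with differences of less than 1 log2 unit. The median of the whole matrix list was 0.11, and Acan was the member that lay above.

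Of 27 measured adhesion genes Cdh7, Perp, Cdh10 and Nrcam lay below and Cntn2, a contactin of axons, lay above (0.84 ± 0.23). Of all genes 2.18% lay below and 4.49% above. Cdh10, a cadherin, lay at -4.94, -4.21, -5.06 and -4.83 against -5.48, -5.21, -5.58 and -5.12. Chl1, of the L1 family of neural adhesion proteins, differed by -1.12 ± 0.31, with heterozygous replicate 2 (-4.71) inside the wild-type range of -5.14 to -3.59. The median of the adhesion list was 0.09, and -0.08 after normexp background correction.

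No signalling pathway gene was called, and each list held 0 to 3 members with separated arrays. Of all genes 4.49% lay above and 2.18% below. Of 15 measured Fgf targets and feedback genes 12 were higher in value, with a median of 0.18. Etv1, an ETS factor induced by Fgf signals, lay below, at 0.11, 0.08, -0.03 and 0.04 against -0.47, -0.26, -0.48 and -0.17 (-0.39 ± 0.10, limma adjusted p = 0.237). Spry4, a feedback inhibitor of the pathway, lay above at -3.17, -3.33, -2.89 and -2.89 against -2.58, -2.73, -2.71 and -2.68 (0.40), as did Etv5 (0.16). Dusp4, a phosphatase of the pathway, differed by 0.54 ± 0.18 with overlapping arrays, and Spry1 and Dusp6 by 0.04 each.

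Of the Wnt modulators Notum, an enzyme that inactivates Wnt ligands, lay at 1.41, 1.10, 1.49 and 1.14 against 2.17, 1.72, 2.12 and 2.54 (0.86 ± 0.26, limma adjusted p = 0.237). With position on the slide in the fit its difference was -0.27. Rspo2, an enhancer of Wnt signalling, lay at -1.71, -2.34, -2.31 and -1.90 against -2.62, -2.38, -3.70 and -3.21 (-0.91 ± 0.34), with heterozygous replicate 2 just below the wild-type range. The pathway's target Axin2 differed by -0.11. In the Hedgehog list Hhip, an antagonist, differed by -0.44 ± 0.15. Chrd, the Bmp antagonist chordin, lay above by 0.37 ± 0.16, while Nog differed by 0.40 ± 0.23. The retinoic acid list held Aldh1a3, an enzyme of retinoic acid synthesis in eye and nose, at -0.21, -0.34, 0.06 and -0.19 against -0.79, -0.80, -1.58 and -2.12 (-1.15 ± 0.31, limma adjusted p = 0.237). All heterozygous arrays lay below, and heterozygous replicates 3 and 4 lay farthest. In the Notch list none of 20 members had separated arrays, and the smallest p belonged to Dll4 (0.37 ± 0.14) and Mfng (-0.41 ± 0.21).

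Hypoxia and glycolysis genes were higher in value in 31 of 35 measured members (88.6%, against 56.9% of all genes), and heterozygous replicate 4 held the largest differences. The median member lay 0.95 above the wild-type mean in that array and 0.18, -0.09 and 0.12 from it in heterozygous replicates 1, 2 and 3. Adm, the vasodilator peptide adrenomedullin, lay at 0.01 in that array and at -3.74 to -2.19 in the other 7. Bnip3, a mitophagy gene, lay at 5.42 against 3.17 to 3.91, and Ankrd37 at 1.20 against -0.55 to -0.21. Ier3, a stress-induced gene outside the list, lay at -1.75 there against -5.31 to -4.47. Without heterozygous replicate 4 the median was 0.06 and 24 of 35 members were higher in value. Pgam1, a glycolytic enzyme gene, was the member whose 4 heterozygous arrays all lay above (0.27). The list members with the smallest p were Pfkl, a subunit of phosphofructokinase (0.59 ± 0.21), and Ndrg1 (0.73 ± 0.29), both with overlapping arrays.

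Ribosomal protein genes were higher in value in 45 of 48 measured members, by small amounts: the median was 0.10, and -0.04 after quantile normalization. Rps9 lay at 6.87, 6.81, 6.91 and 6.53 against 7.06, 7.03, 7.06 and 7.24 (0.32 ± 0.10), and Rps12 differed by 0.33 ± 0.13. Oxidative phosphorylation genes went the other way, with 26 of 31 lower in value and a median of -0.11. Cox6c lay at 5.14, 5.17, 4.89 and 5.08 against 4.79, 4.90, 4.40 and 4.48 (-0.43 ± 0.13), and Sdhb differed by -0.26 ± 0.09. Uqcrfs1 and Cycs, of the cytochrome bc1 complex and cytochrome c, lay below, at -0.20 and -0.19.

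Cell cycle and replication genes were divided, with 12 of 24 members lower in value and a median of 0.00. Pcna, the replication clamp, lay at 5.68, 5.61, 5.54 and 5.76 against 5.50, 5.40, 5.53 and 5.48 (-0.17 ± 0.08), and Ccnd2 differed by 0.24 ± 0.12. Of 19 measured p53 targets 12 were lower in value, with a median of -0.02. Perp and Rrm2b, a ribonucleotide reductase subunit (-0.40 ± 0.16), lay below, and Cdkn1a, Mdm2 and Ccng1 differed by 0.27, -0.14 and -0.14. Among other Chd family and chromatin genes, Chd4 lay at 4.75, 4.70, 4.73 and 4.56 against 4.85, 4.81, 4.98 and 4.92 (0.21 ± 0.09), and Chd9 differed by -0.34 ± 0.15 with overlapping arrays. Chd8 and Smarca4, a remodeller that partners with Chd7, differed by -0.08 and 0.05. Of the immediate early genes Nr4a1 lay above by 0.21 ± 0.09, and Fos and Jun differed by -0.42 and -0.18.

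Markers of other tissues that a whole-embryo sample can hold moved between arrays of the same genotype. The visceral endoderm, yolk sac and liver bud list had 17 of 21 measured members higher in value and a median of 0.64. The median member, however, lay at -0.81, 1.28, 0.40 and -0.86 in the wild-type arrays and at 0.12, 0.56, 0.59 and 1.03 in the heterozygous ones, and none of its genes had separated arrays. Afp, alpha-fetoprotein, lay at 1.26, 3.49, 2.41 and 0.76 in wild type and at 2.05, 3.04, 2.25 and 3.13 in heterozygotes. Apoa2 differed by 0.58 ± 0.31. Red blood cell genes were higher in value in 15 of 16 measured members, with a median of 0.22 and a wild-type range of the median member of -1.04 to 0.64 that held all heterozygous arrays. Hbb-y, an embryonic globin, lay at 7.03, 5.87, 5.42 and 6.99 against 6.90, 7.15, 6.22 and 6.69. The part of these cells in the results above was not tested.

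Endothelial genes had a median of 0.09 over 19 members. Pecam1, an endothelial adhesion protein, lay above at -3.35, -3.13, -3.00 and -3.41 against -2.73, -2.95, -2.83 and -2.41 (0.49 ± 0.14), and Kdr, the Vegf receptor, differed by 0.52 ± 0.25. Of 11 measured macrophage genes Fcgr1 and Fcer1g (0.42 ± 0.14) lay above, where 4.49% of all genes did. The macrophage median of 0.26 was -0.09 after normexp background correction and 0.16 without heterozygous replicate 1. Surface ectoderm genes had a median of 0.13, with Tfap2c at 0.43 ± 0.15 and Perp the member that lay below. Gut endoderm genes had a median of 0.09, with Krt19 at 0.68 ± 0.26. Trophoblast genes, of which 9 of 16 were measured, had a median of 0.39, which was 0.04 after normexp background correction and 0.09 with position in the fit, with Prl3d1 at 0.55 ± 0.17, Synb at 0.49 ± 0.22 and no separated member. Genes of maternal decidua had a median of -0.08, and 0.06 without heterozygous replicate 1, with Hsd11b2 at 0.52 ± 0.23 and Wnt4 at 0.31 ± 0.19.

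The remaining genes that set single heterozygous arrays apart formed no list fixed here. In heterozygous replicate 2, Vmn1r214, Adra1d, Gpam and 1700030J22Rik lay farthest above the other 7 arrays and Pate2, Olfr122, Nacad and Rtl4 farthest below. Gpam, a glycerol-3-phosphate acyltransferase, lay at -2.83 against -5.18 to -4.43. In heterozygous replicate 3, Ffar2, Ccl21a, Tbxas1 and Plcb2 lay farthest above, with Ccl21a, a chemokine, at -2.64 against -6.10 to -5.48. Krt17, Mab21l1, Olfr875 and Gm5127 lay farthest below in that array. Mab21l1, a gene of eye and midbrain development, lay at -7.65 there and at -6.05 to -5.03 in the other heterozygous arrays, which were themselves below the wild-type range of -4.71 to -4.14 (-1.58 ± 0.46). In heterozygous replicate 4, 1700024G13Rik, Gm5935, Ier3 and Klra16 lay farthest above, and Cryge, a lens crystallin, lay at -3.93 against -2.36 to -1.82.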

How the data were processed

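The deposited scanner tables hold spot intensity, which the authors extracted with Agilent Feature Extraction 10.7.3.1, per the submitters' processing notes; per the file headers it was background-subtracted and detrended within each 1-colour array. The deposited value table holds the same intensity. Control spots (1377) and flagged spots were left out, and log2 intensity was set relative to each array's percentile 75. Spots of the same probe were averaged, and each gene was represented by its probe with the highest mean signal. Of 39429 probes, 26055 were named through the gene table. All 12 arrays entered 1 fit per gene in limma 3.58.1 (R 4.3.3), tested on simulated data, with Benjamini-Hochberg adjustment and a threshold of 0.05. The number of arrays limits the precision. Figures were drawn with matplotlib 3.10.9.

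Named genes were those called, the 12 with the smallest p in each direction among genes with a symbol and arrays that did not overlap, 2 per list and, per heterozygous array, the 4 farthest above and below the other 7. Further list members, genes apart by at least 1 log2 unit and the promoters were chosen after their values were seen. The gene lists were chosen with earlier results of these data known. Alternatives were the background correction (normexp on median signal, offset 50), scaling, the filter on dim probes, slide, position or title number as a block, and each array left out. A few genes that entered the fits and counts are not reported here by name.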

Additional observations from a re-analysis of the deposited data

Results flagged for a closer look

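Of 256 groups of 4 arrays tested, 11 held an array whose gap to its nearest neighbour exceeded the critical share of the group's range in Dixon's test, and chance gives about 1 in 20. Genes named because 1 array lay far from the others were not tested. The share of the range was 0.879 for Abca9 in heterozygotes (replicate 4 at -3.65), 0.876 for Akap6 in wild type (replicate 1 at -5.44) and 0.873 for Alx1 in heterozygotes (replicate 2 at -1.49). It was 0.843 for Osr2 in wild type (replicate 3 at -6.06), 0.857 for Hoxd11 in heterozygotes (replicate 1 at -2.66) and 0.967 for Tecrl in heterozygotes (replicate 1 at -5.21). In wild type it was 0.944 for Dusp4 (replicate 3 at -1.41) and 0.838 for Rrm2b (replicate 1 at -3.97). In heterozygotes it was 0.85 for Rps9 (replicate 4 at 7.24). The median member of the heart list gave 0.837 in heterozygotes (replicate 1 at -2.52), and that of the Wnt list 0.874 in wild type (replicate 2 at -0.11).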

How the results depend on the processing

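The count of 2 called genes was 3 after quantile normalization and 2 with median scaling, the deposited value table, every probe on its own, array weights or position as a block, where Myot and ENSMUST00000001667 were not among them. It was 1 after normexp and 1 with probes above background on all 12 arrays, a filter that left Myot untested. It was 1 with only the 8 arrays compared (Cdh7, with neither Myot nor ENSMUST00000001667) and 1 with trend and robust variance. It was 5 with no filter on dim probes and 5 with slide as a block. With the title number as a replicate block limma called 0 (2258 at an unadjusted p under 0.05). Between arrays of unlike genotype, deviations from the genotype mean correlated at -0.32 to 0.29 for same-numbered samples and at -0.31 to 0.24 for the others. Pairs of the same genotype were left aside, because deviations from a shared mean correlate negatively by construction. The highest was between wild-type and heterozygous replicate 1, which share a number. Whether the numbers mark pairs was therefore not settled, and they were left out of the main fit. With slide as a block in the 8 arrays, added after seeing the data, limma called 0 (3543 unadjusted). Leaving out 1 array gave 0 to 3 calls, with 0 by limma in 4 of 8 omissions (1988 to 3636 unadjusted). After normexp the sign turned for Sypl2 (-0.03), Fcgr1 (-0.08), Osr2 (-0.06), Hoxc8 (-0.01) and Synb (-0.02). With position as a block it turned for Hoxc8 (-0.11), Notum (-0.27), Rxra (-0.01), Pcna (0.03), Ccnd2 (-0.02), Sox17 (0.40), Hsd11b2 (-0.08) and Wnt4 (-0.41). Xist ranged from -0.36 to 0.11 over the omissions, with 0.07 without wild-type replicate 4 and 0.11 without heterozygous replicate 2. The cause was not tested. Probes near background limit the dim genes.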
